A study of Mus musculus with 24 samples.

Results

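The 10 genes described here are imprinted in the mouse: Dlk1, Meg3, Rian and Mirg of the Dlk1-Meg3 domain, Igf2r and Airn, Plagl1 (also called Zac1), Grb10, Gnas and Nnat. They were chosen by name, as the rows of the deposited gene table that carry these symbols. Each of the 10 had 1 row among 24016 genes, and all 10 passed the filter on low values that left 20624 genes for the tests. They were read in female mouse embryonic stem cells of 2 lines, each on day 10 and on day 0 of differentiation. The KO line lacks G9a, a histone H3K9 methyltransferase encoded by Ehmt2, and was made from the parental line 16.7, which serves as WT. Both lines carry the same genotype at Tsix (Tsix +/TST), so every group shares it. Day 10 cells had LIF withdrawn, spent 4 days in suspension and then 6 days on gelatin, while day 0 cells were left undifferentiated. There were 3 total RNA libraries in each of the 4 groups (KO day 10, WT day 10, KO day 0 and WT day 0) and 1 H3K9ac ChIP sample per group. The labels number the libraries of a group as donors 1 to 3 of a single line. Whether the KO cells are 1 clone, and whether these numbers stand for separate cultures, is not stated, so p-values measure only the spread between these libraries.

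Genomic imprinting is the expression of a gene from the copy inherited from 1 parent. It is set by DNA methylation of imprinting control regions in the germ line. That methylation is kept after fertilisation by a zinc finger protein, ZFP57, and its partners, which recognise a methylated hexamer. In the Dlk1-Meg3 domain the growth regulator gene Dlk1 is expressed from the paternal copy and the noncoding RNAs Meg3, Rian and Mirg from the maternal copy. At Igf2r the paternally expressed noncoding RNA Airn runs through the Igf2r promoter on the opposite strand and silences the paternal Igf2r, which in embryonic stem cells is still expressed from both copies before differentiation.

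Parental expression can be read only where the cells hold 2 distinguishable alleles, and of the 10 loci only that of Gnas did. The line is a hybrid whose reads were split by the authors into mus and cas counts. Around Gnas (chromosome 2, 174109821 to 174172243, mm9) the median cas share was 50.7% over 57 genes within 5 Mb that had at least 20 allelic reads. In single libraries that median ran from 44.3 to 53.3%. Around the other 9 genes it was between 0.441 and 1.77%, so nearly every read there was assigned to mus. Nnat lies on the same chromosome as Gnas (157385814 to 157388261) but in a stretch where 127 neighbouring genes had a median cas share of 1.13%. The members themselves followed their neighbourhoods. Over all 12 libraries Gnas had 251 cas reads of 468 allelic reads, or 53.6% (Wilson 95% interval 49.1 to 58.1%, which like all intervals of shares here covers counting error only). Among the others the highest share was 3.13% for Airn (103 of 3293 reads), followed by 2.04% for Rian (341 of 16682). Dlk1 and Nnat had 0 cas reads, of only 85 and 17 allelic reads, which leaves Wilson upper bounds of 4.32 and 18.4%. For the other 9 genes the copies therefore cannot be told apart, and which parent gave the mus or the cas alleles of Gnas is not in the labels.

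**Figure D1:**
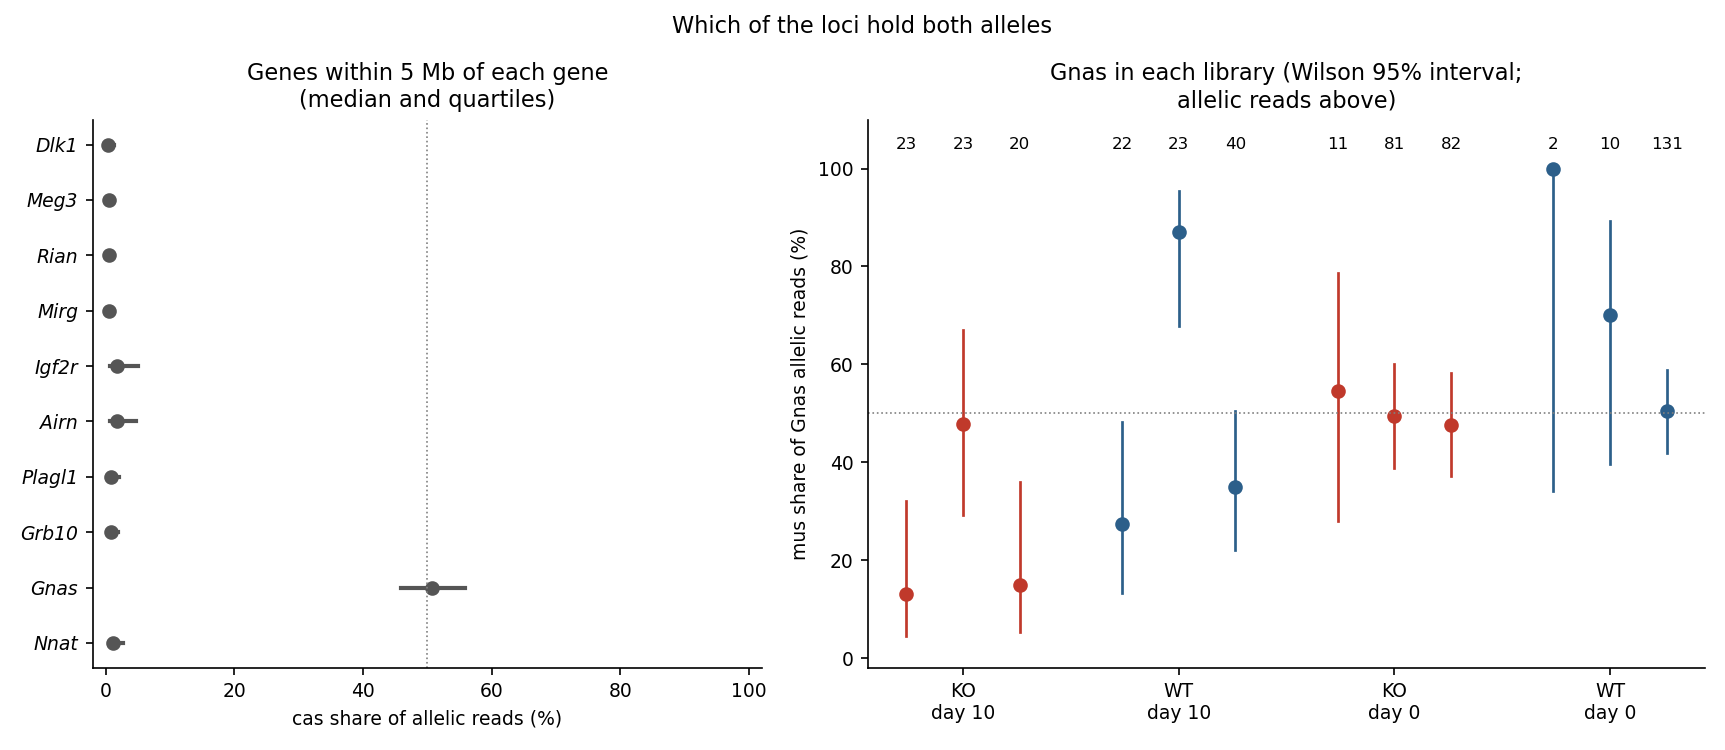
Left, cas share of allelic reads in percent over the genes within 5 Mb of each of the 10 genes (point, median; line, quartiles). Right, mus share of Gnas allelic reads in percent in each of the 12 libraries with Wilson 95% intervals and the number of allelic reads above; the median at Gnas is 50.7% and elsewhere at most 1.77%, and on day 10 the Gnas share runs from 13 to 47.8% in KO libraries and from 27.3 to 87.0% in WT libraries.

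The libraries were not alike in depth or make-up. They held 2081129 to 30527844 reads counted to genes, and the 3 deep ones (21087157 to 30527844 reads) were all of day 0: KO replicates 2 and 3 and WT replicate 3. In those 3 the ribosomal row Rn45s took 0.115 to 0.129% of reads, against 14.8 to 25.1% in the other 9, so depth and rRNA removal cannot be told apart. Which stretch of Ehmt2 is deleted is not stated, so its row, which counts the whole gene, checks the KO label only in part. Ehmt2 stood at 375 to 557 scaled reads in KO and 987 to 1375 in WT libraries on day 0. On day 10 the KO libraries (499.8 to 758) overlapped the WT libraries (719 to 1359). The summed level of 10 naive pluripotency genes was 4090 to 4220 CPM in KO and 3947 to 5000 CPM in WT libraries of day 0. On day 10 it was 1412 to 1992 CPM in KO and 440 to 965 CPM in WT. Replicate 1 of both day 0 groups held more reads of a 12-gene fibroblast list (1789 CPM in KO and 3260 CPM in WT) than the other 4 day 0 libraries (998 to 1124 CPM). On day 10 that list summed to 2694 to 3647 CPM in KO and 1384 to 2910 CPM in WT libraries with 0 to 2 of the 12 genes at 0 in a library, among them Dcn in all 3 KO libraries and in WT replicate 1. A 9-gene trophoblast list summed to 1168 to 1486 CPM in KO and 667 to 1895 CPM in WT libraries on day 10, against 104.3 to 143.3 CPM on day 0. An 8-gene muscle list summed to 343 to 875 CPM in KO and 144 to 324.5 CPM in WT libraries on day 10, every KO library above every WT library, against 19.8 to 60.1 CPM on day 0. Y-linked reads, which a female line should lack, were 11.9 CPM in KO and 28.3 CPM in WT in replicate 1 of day 0 and at most 3.05 CPM in the other 10 libraries. The part of these cell types in the day changes and in the differences between KO and WT was not tested. KO day 0 replicate 1 and WT day 10 replicate 3 also held more reads of olfactory and vomeronasal receptor genes (1072 and 1093 CPM) than the other 10 libraries (31.1 to 377 CPM). In bulk RNA, fewer cells of a type and less RNA per cell cannot be told apart.

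With differentiation 4 of the 10 genes rose in both lines: Airn, Nnat, Meg3 and Gnas. Of these, Gnas lost its call in several other fits, and Airn lost its KO call when KO day 10 replicate 3 was left out (limma adjusted p = 0.0648). Grb10, a growth factor receptor adaptor, fell in KO cells and missed the threshold in WT cells in the main fit, though edgeR and DESeq2 passed it in WT. No member passed between KO and WT on either day after adjustment over all genes, but by limma no gene did. Ehmt2 itself did not pass, at a log2 difference of -0.80 ± 0.31 on day 10 and -1.34 ± 0.31 on day 0 (limma adjusted p = 0.323 and 0.993). The absence of passing members therefore does not show that they are alike in the 2 lines. Levels are scaled reads, which the authors had brought to 1 total in all libraries, and log2 changes with their SE come from limma on log2(value + 1), which understates the change of low genes. That total includes the Rn45s reads. Other genes are therefore scaled lower where Rn45s took 14.8 to 25.1% of reads than in the deep day 0 libraries (0.115 to 0.129%). How far this shifts the day changes was not tested, and TMM and RLE scaling are among the alternatives below.

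Airn, the noncoding RNA antisense to Igf2r (chromosome 17, 12934177 to 13052750), changed most. It had 1614.5, 2629 and 4519.7 scaled reads in KO libraries on day 10, against 473, 117 and 138 in KO libraries on day 0. In WT it had 2189, 4174 and 5654 scaled reads on day 10, against 371, 50.1 and 63.8 on day 0. In each line every day 10 library was above every day 0 library, and in each line the highest day 0 library was replicate 1. The log2 change was 3.76 ± 0.70 in KO (limma adjusted p = 0.00969) and 5.12 ± 0.70 in WT (limma adjusted p = 9.9e-04), or 13.5-fold and 34.7-fold. The difference between these 2 changes was -1.36 ± 0.99 (95% interval -3.49 to 0.76), with a limma adjusted p of 0.692. It was -2.26 without WT day 0 replicate 1, -0.73 without KO day 0 replicate 1 and -0.83 without WT day 0 replicate 2. The day 0 libraries that were high in Airn were those with most fibroblast reads, where Col1a1 stood at 925 scaled reads in KO and 3997 in WT, against 47.8 to 91.9 in the other 4. They also held the most olfactory and vomeronasal receptor reads of day 0 (1072 CPM in KO and 377 CPM in WT, against 74.3 to 252 CPM). On day 10 the library with most such reads was the highest in Airn in WT (replicate 3, 1093 CPM) but the lowest in KO (replicate 1, 65.9 CPM). The part of either kind of reads in the Airn level was not tested. Without replicate 1 of both day 0 groups the log2 change of Airn was 4.38 in KO and 6.02 in WT. Without the 3 deep libraries, which leaves replicate 1 alone for KO on day 0, the KO change was 2.50 and did not pass (limma adjusted p = 0.194). It also missed the threshold without KO day 10 replicate 3 (3.38, limma adjusted p = 0.0648).

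Igf2r, the receptor that clears the growth factor IGF2 and is overlapped by Airn over 28.4 kb (chromosome 17, 12875272 to 12962572), showed no change that passed. It had 1587, 1446 and 1259 scaled reads in KO libraries on day 10, against 1535, 2139.8 and 2012 on day 0. In WT libraries it had 1047, 1402 and 750.2 on day 10, against 1574, 1929 and 1554 on day 0. The WT days did not overlap and the KO days did. The log2 changes were -0.40 ± 0.28 in KO and -0.70 ± 0.28 in WT, with limma adjusted p = 0.315 and 0.203. The 95% interval of the WT change ran from -1.29 to -0.11 on the log2 scale. Strand use in counting is not stated, so reads in the shared stretch cannot be assigned with certainty. Mas1, of which 69.6% lies within Airn on the opposite strand, had 11.9, 5.48 and 16.2 scaled reads in KO libraries and 52.5, 28.8 and 83.4 in WT libraries of day 10, far below Airn there.

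Meg3 (chromosome 12, 110779206 to 110809939), the first noncoding RNA of the maternal strand of its domain, rose by nearly the same factor in both lines. It had 6629, 4178 and 4975 scaled reads in KO libraries on day 10, against 1161, 1253 and 1163 on day 0. WT cells gave 6312, 7305 and 9183 on day 10, against 1772, 1766 and 1431 on day 0. Day 10 and day 0 were far apart in both lines. The log2 change was 2.11 ± 0.25 in KO (limma adjusted p = 4.6e-04) and 2.19 ± 0.25 in WT (limma adjusted p = 2.5e-04), and the difference of the changes was -0.07 ± 0.36 (95% interval -0.84 to 0.69). Both calls held when any of the 12 libraries was left out.

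Rian and Mirg lie downstream of Meg3 on the same strand, Rian as host of snoRNAs (chromosome 12, 110842155 to 110899921) and Mirg as host of microRNAs (110973191 to 110987667). Rian had 3907, 3494 and 3837 scaled reads in KO libraries on day 10, against 1043, 2624 and 2629 on day 0. In WT libraries Rian had 3443, 6955 and 7119.6 on day 10, against 1340.5, 1904 and 3145 on day 0. On day 0 the deep libraries of each line were the high ones, which was also so for Mirg. Mirg had 686, 659.9 and 819.8 scaled reads in KO libraries on day 10, against 165, 428 and 411 on day 0. In WT libraries Mirg had 503, 984 and 1055 on day 10, against 304, 159 and 598 on day 0. Rian days did not overlap in either line, and Mirg days overlapped in WT. The log2 changes of Rian were 0.95 ± 0.41 in KO and 1.47 ± 0.41 in WT (limma adjusted p = 0.129 and 0.0608). Those of Mirg were 1.22 ± 0.48 in KO and 1.39 ± 0.48 in WT (limma adjusted p = 0.104 and 0.137). With the replicate number as a block, the WT change of Rian passed (limma adjusted p = 0.0222). With the 3 deep libraries left out, both WT changes passed, Rian at 1.79 (limma adjusted p = 0.0101) and Mirg at 1.87 (limma adjusted p = 0.0182). With a depth term both passed in both lines, Rian at 1.62 in KO and 1.70 in WT (limma adjusted p = 0.00932 and 0.0015) and Mirg at 2.07 in KO and 1.68 in WT (limma adjusted p = 0.00421 and 0.0025). Both also passed in both lines with RLE scaling and by DESeq2. Without KO day 0 replicate 1 the KO changes were 0.51 for Rian and 0.78 for Mirg.

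The small RNAs themselves were hardly sampled. Within Meg3, Rian and Mirg lie 23 rows of hairpins and snoRNAs, which held 388, 285 and 134 reads over the 12 libraries for the 3 hosts, so these libraries of long RNA say little about them. The row with most reads in Mirg was Mir453, with 43. Its mature microRNA shares its seed (bases 2 to 8, in capitals) with miR-496a-5p from the same host, and the pair is shown because it is the only shared seed among the 19 mature microRNAs of Mirg's rows in the RefSeq table (GRCm38.p6, at chr12:109735669-109735692 and chr12:109739132-109739152, + strand).
miR-453: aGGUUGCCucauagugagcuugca
miR-496a-5p: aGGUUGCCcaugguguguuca

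Dlk1, the paternally expressed transmembrane growth regulator of the domain (chromosome 12, 110691033 to 110701546), stayed low. It had 79.3, 60.2 and 148 scaled reads in KO libraries on day 10, against 34.2, 42.7 and 35.9 on day 0. WT cells gave 74.1, 78.2 and 54.6 on day 10, against 42.4, 29.2 and 36.7 on day 0. All day 10 libraries were above all day 0 libraries of their line, on 7 to 131 reads per library. The log2 changes of 1.23 ± 0.47 in KO and 0.91 ± 0.47 in WT did not pass (limma adjusted p = 0.098 and 0.358). By DESeq2 the KO change was 1.67 and passed (DESeq2 adjusted p = 0.00433). This was the 1 of 26 alternatives in which it did, and the WT change passed in 0 of 26. Per kb of genomic span on day 10, Meg3 stood at 171 ± 40.7 scaled reads in KO and 247 ± 47.5 in WT, and Dlk1 at 9.13 ± 4.41 in KO and 6.56 ± 1.20 in WT (SD, n = 3 each).

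Gnas encodes, beside the widely used G protein alpha subunit, transcripts that start further upstream and are expressed from 1 parental copy, and its single row spans all of them. It had 2142, 2998 and 2942 scaled reads in KO libraries on day 10, against 651, 1093 and 1165 on day 0. The WT libraries had 2619, 2439.9 and 1814 on day 10, against 722, 973 and 1195 on day 0. The days did not overlap in either line. The log2 change was 1.5 ± 0.30 in KO (limma adjusted p = 0.014) and 1.26 ± 0.30 in WT (limma adjusted p = 0.0299). The WT call was lost when WT day 0 replicate 1 or 2, WT day 10 replicate 1 or 2, or KO day 10 replicate 2 or 3 was left out, with limma adjusted p up to 0.114. It was also lost with TMM scaling (limma adjusted p = 0.0717), with only the compared groups in the fit (0.0837) and without the 3 shallow day 0 libraries (0.0519). The KO call was lost without KO day 10 replicate 2 or 3 (limma adjusted p = 0.0661 and 0.0749).

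Nnat, a small membrane proteolipid gene of neural and endocrine cells that lies wholly within Blcap on the opposite strand, rose in both lines. It had 286, 399.8 and 380.2 scaled reads in KO libraries on day 10, against 21.8, 44.6 and 58.1 on day 0. The WT libraries had 451, 311 and 233 on day 10, against 24.8, 33.4 and 61.5 on day 0. All day 10 libraries were several times above all day 0 libraries. The log2 change was 3.16 ± 0.46 in KO (limma adjusted p = 0.00229) and 3.07 ± 0.46 in WT (limma adjusted p = 0.00184), and both calls held when any library was left out. Blcap had 365, 277 and 259 scaled reads in KO and 389, 350.0 and 351 in WT libraries on day 10, so Nnat alone exceeded its host row in KO replicates 2 and 3 and in WT replicate 1.

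Grb10, a signalling adaptor that restrains growth (chromosome 11, 11830502 to 11937423), was the member that fell. It had 249.9, 197 and 151 scaled reads in KO libraries on day 10, against 479, 830.1 and 828 on day 0. In WT libraries it had 124, 126 and 259 on day 10, against 399.7, 313 and 729.5 on day 0. Day 10 was below day 0 without overlap in both lines. The log2 change was -1.82 ± 0.40 in KO, which passed (limma adjusted p = 0.0205), and -1.5 ± 0.40 in WT, which did not (limma adjusted p = 0.0515). The 2 changes differed by -0.32 ± 0.57 (95% interval -1.55 to 0.90), so a passing test in KO alone does not show a difference between the lines. The KO call was lost without KO day 0 replicate 2 or 3 or KO day 10 replicate 2 or 3 (limma adjusted p = 0.0722 to 0.0963), and without the 3 deep libraries it was -1.29 (limma adjusted p = 0.152). The WT change passed in 3 of the 12 fits that left out a library, namely those without KO day 0 replicate 1, WT day 0 replicate 2 or WT day 10 replicate 3. It also passed by edgeR (-1.42, edgeR adjusted p = 0.0439), by DESeq2 (-1.29, DESeq2 adjusted p = 0.0121) and with the depth term (-1.32, limma adjusted p = 0.0225). Of all 26 alternatives it passed in 9.

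Plagl1, a zinc finger transcription factor, showed no day change that passed. It had 456, 479 and 429 scaled reads in KO libraries on day 10, against 318, 479 and 543 on day 0. In WT libraries it had 318, 216 and 342 on day 10, against 198, 154 and 298 on day 0. The days overlapped in both lines, and the log2 changes were 0.06 ± 0.33 in KO and 0.45 ± 0.33 in WT (limma adjusted p = 0.908 and 0.552).

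In counts over all 10 genes, 4 rose and 1 fell in KO cells, against 2.43% and 6.46% of all tested genes that passed as higher and lower in that comparison. In WT cells 4 rose and 0 fell, against 2.02% and 2.40% of all tested genes. The median log2 change of the 10 was 1.23 in KO and 1.33 in WT, beside -0.68 and -0.20 over all tested genes. By edgeR on the reads recovered from the scaled values, 5 members passed in KO and 6 in WT, where 1046 of 14884 genes passed in each line. By DESeq2 8 members passed in KO and 7 in WT, where 3276 genes passed in KO and 1840 in WT. For the difference of the 2 day changes the members' log2 values ran from -1.36 (Airn) to 0.32 (Dlk1) and 0 of 10 passed, against 0% of all tested genes. At an unadjusted p under 0.05 limma gave 0 members and 1795 genes there, edgeR 1543 genes, and after adjustment edgeR passed 0 and DESeq2 90 genes.

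**Figure D2:**
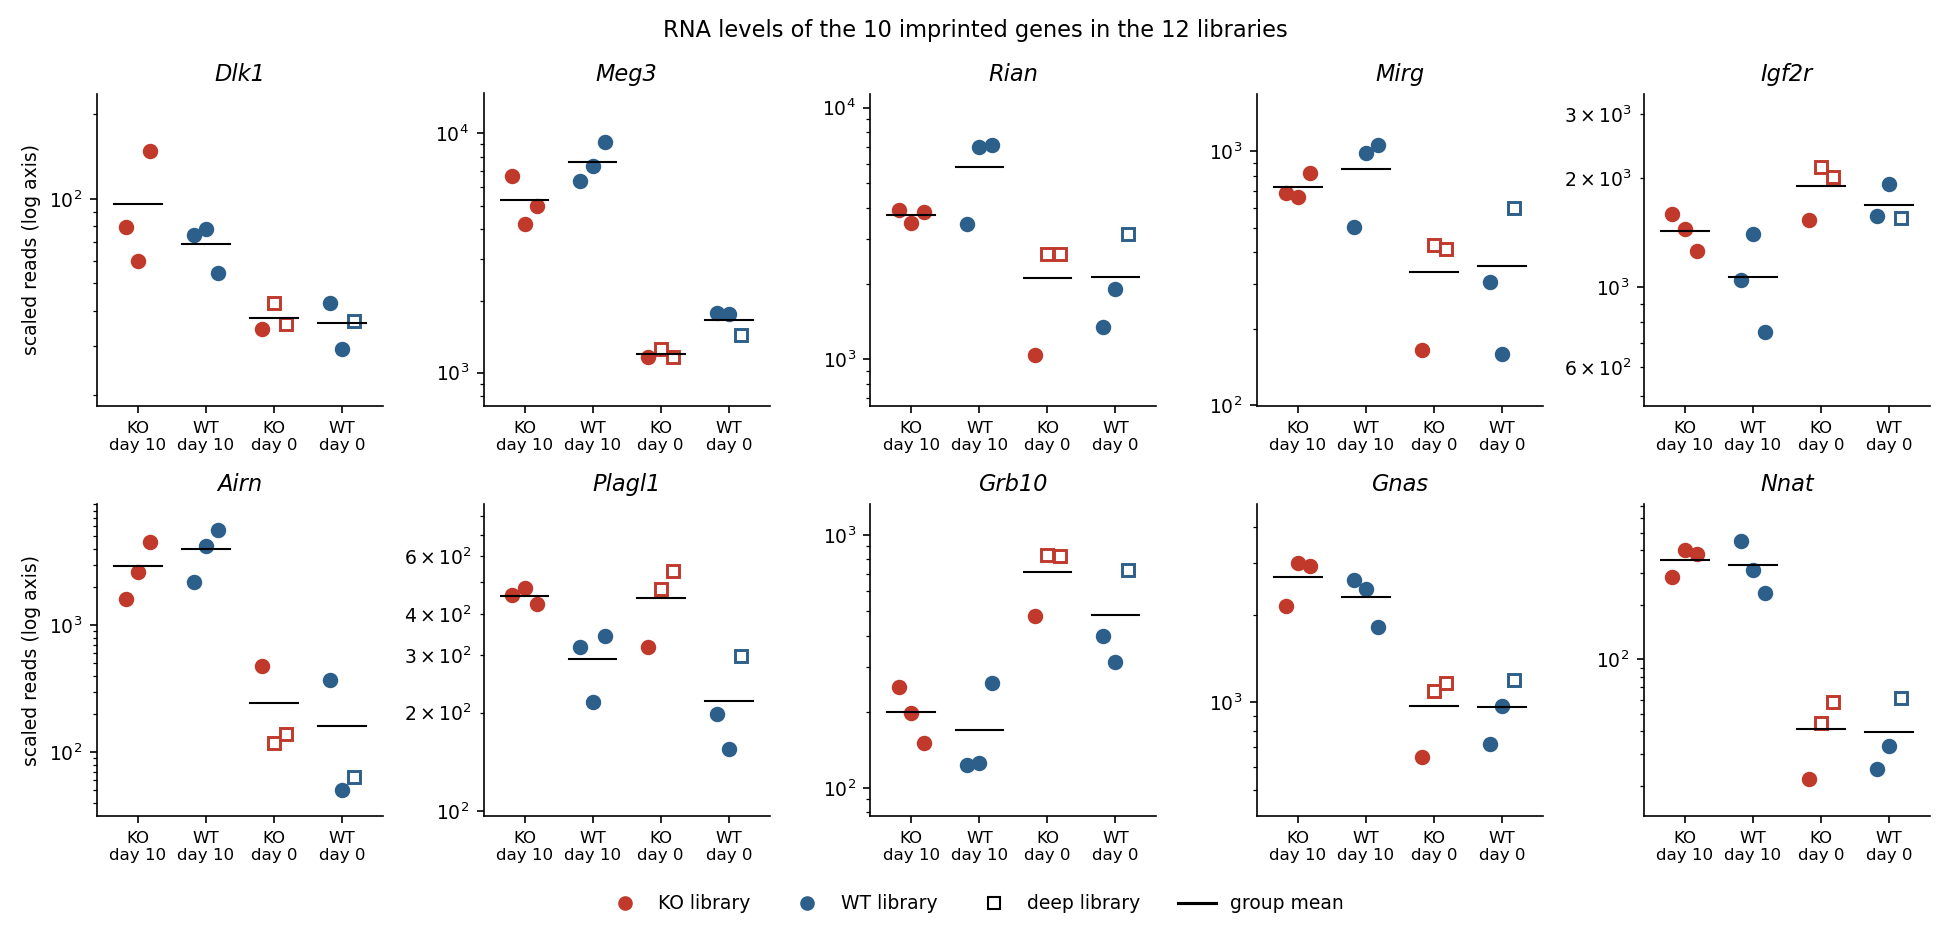
Scaled reads (log axis) of the 10 genes in the 12 libraries, 3 per group, with KO in red and WT in blue; open squares are the 3 deep libraries and black lines the group means. Airn, Nnat, Meg3, Gnas, Dlk1 and Rian stand higher on day 10 than on day 0 in every library of both lines, and Grb10 stands lower. Dlk1 and Rian did not pass in the main fit, and how many of all genes are without overlap between the days was not counted. Plagl1 is higher in every KO library than in every WT library of the same day.

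The comparison of KO with WT asks whether loss of G9a changes imprinted genes, and 0 of 10 members passed on day 10 and 0 of 10 on day 0, where 0% and 0% of all tested genes passed. At an unadjusted p under 0.05 limma gave 2462 genes on day 10 and 788 on day 0 (edgeR 2074 and 601), and after adjustment edgeR passed 0 and 0 and DESeq2 548 and 16 genes. DESeq2 passed 0 members on either day, and at an unadjusted p under 0.05 limma gave 0 members on day 10 and 1 (Plagl1) on day 0. The median log2 difference of the 10 was 0.19 on day 10 and 0.06 on day 0, beside -0.26 and 0.17 over all tested genes.

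Plagl1 was higher in KO in every library on both days. Its 3 KO libraries (456, 479 and 429 scaled reads) were all above its 3 WT libraries (318, 216 and 342) on day 10. On day 0 the KO libraries (318, 479 and 543) were again all above the WT libraries (198, 154 and 298). The log2 difference was 0.66 ± 0.33 on day 10 (95% interval -0.04 to 1.37, limma adjusted p = 0.436) and 1.06 ± 0.33 on day 0 (95% interval 0.35 to 1.76, limma adjusted p = 0.993). A 2-sided exact permutation test of 3 against 3 libraries gave p = 0.1 on each day, the smallest it can give. Plagl1 was the only member higher in KO without overlap on day 10 and the only one on day 0, against 5.54% and 5.50% of all tested genes. Within depth classes on day 0 the difference was 0.86 among the shallow libraries (1 KO and 2 WT) and 0.77 among the deep ones (2 KO and 1 WT).

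Meg3 was the only member lower in KO without overlap on day 0, against 4.98% of all tested genes. Its KO libraries had 1161, 1253 and 1163 scaled reads and its WT libraries 1772, 1766 and 1431. The log2 difference was -0.47 ± 0.25 (limma adjusted p = 0.993), with -0.61 among shallow and -0.25 among deep libraries. On day 10 it was -0.54 ± 0.25 (limma adjusted p = 0.42), and there KO replicate 1 (6629) exceeded WT replicate 1 (6312). The log2 differences of the other 8 members ran from -0.57 (Rian) to 0.46 (Igf2r) on day 10 and from -0.05 (Rian) to 0.89 (Airn) on day 0. The Airn value of day 0 was 0.26 without KO replicate 1 and 1.79 without WT replicate 1. The 95% intervals ran from -1.98 to 1.02 for Airn on day 10 and from -0.93 to 0.83 for Rian on day 0, so these values do not show that the lines are alike. Within depth classes on day 0 the difference of Rian was -0.61 among shallow and -0.26 among deep libraries, and that of Mirg -0.41 and -0.51. Gnas (-0.36 and -0.08) and Nnat (-0.39 and -0.27) were also below 0 in both classes. Airn (1.78 and 0.99) and Grb10 (0.44 and 0.18) were above 0 in both. Dlk1 (-0.04 and 0.09) and Igf2r (-0.18 and 0.42) changed sign. Each class has 1 library of 1 of the lines.

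**Figure D3:**
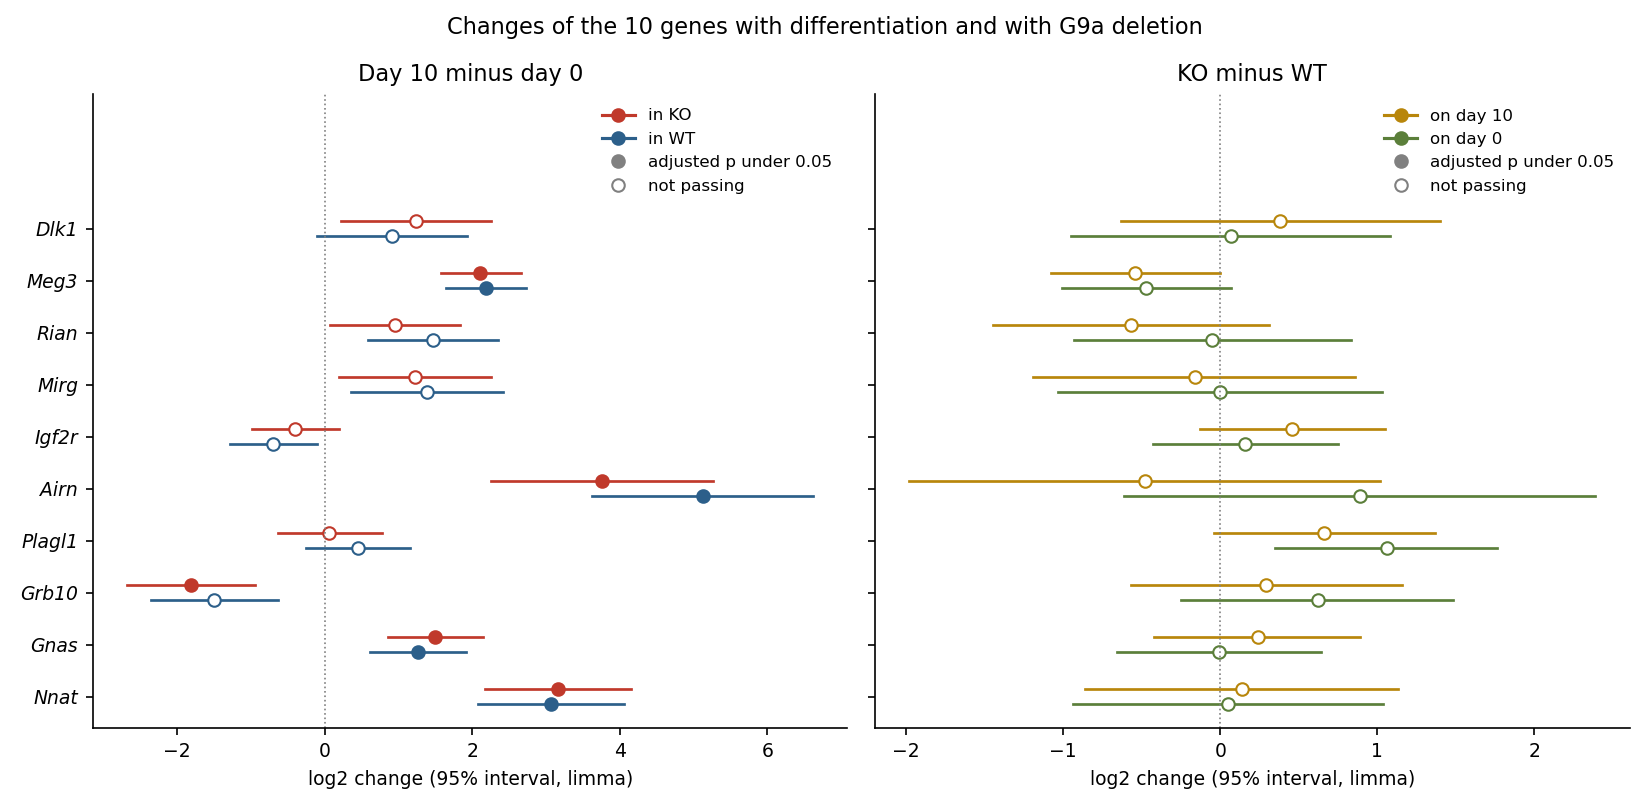
Log2 changes of the 10 genes with 95% intervals from limma, on the left for day 10 minus day 0 in KO (red) and WT (blue), on the right for KO minus WT on day 10 (gold) and day 0 (green); filled points passed an adjusted p of 0.05. Airn (3.76 in KO, 5.12 in WT) and Nnat (3.16 and 3.07) lie farthest to the right in the day panel, and no point in the KO minus WT panel is filled.

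Gnas, the member with 2 alleles, did not show a share that differed between groups beyond the spread of its libraries. On day 10 its mus share was 13% (3 of 23 allelic reads), 47.8% (11 of 23) and 15% (3 of 20) in the KO libraries, against 27.3% (6 of 22), 87.0% (20 of 23) and 35% (14 of 40) in the WT libraries. On day 0 it was 54.5% (6 of 11), 49.4% (40 of 81) and 47.6% (39 of 82) in KO, against 100% (2 of 2), 70.0% (7 of 10) and 50.4% (66 of 131) in WT. The best covered libraries of day 0 lay close to an even share in both lines. As the row sums all transcripts of Gnas, an even share does not show from which copies any single transcript is expressed. On day 10 single libraries departed from it in both directions, with Wilson 95% intervals of 4.54 to 32.1% for KO replicate 1 and 67.9 to 95.5% for WT replicate 2.

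Tested by edgeR with a term for each library, the log2 odds of mus in KO against WT on day 10 was -1.48 (unadjusted p = 0.0865, adjusted p = 1.00 over 7666 genes; exact permutation of shares p = 0.4). For day 10 against day 0 in KO it was -1.51 (edgeR unadjusted p = 0.0466, adjusted p = 0.434 over 7791 genes; exact permutation p = 0.2). The edgeR tests that involve WT on day 0 were not run for Gnas because replicate 1 had 2 allelic reads and the minimum was 10. The other members that could be tested hold nearly only mus reads, so a count over them says little about allele use, and Dlk1, Grb10 and Nnat had too few reads in every comparison. By edgeR 0 of 7 tested members passed for KO against WT on day 10, 0 of 5 for KO against WT on day 0, 0 of 7 for the days in KO and 0 of 5 for the days in WT. At an unadjusted p under 0.05 there was 1 member (Mirg) and there were 356 of 7666 genes for KO against WT on day 10, 3 members (Meg3, Igf2r and Gnas) and 860 of 7791 genes for the days in KO, and 0 members in the others, with 241 of 8653 genes for KO against WT on day 0 and 523 of 7802 for the days in WT. Over all genes tested, 0.0913% passed after adjustment for KO against WT on day 10, 0% for KO against WT on day 0, 1.36% for day 10 against day 0 in KO and 0.0641% for day 10 against day 0 in WT. Without KO day 0 replicate 1 a single member passed in KO, Meg3 (edgeR adjusted p = 0.0206), whose pooled mus share was 99.8% on day 10 and 98.7% on day 0 in a region where nearly every read is mus.

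Nespas, a noncoding RNA antisense to the upstream part of Gnas, had nearly as many mus as cas reads (612 and 627 of 1239). Of its row 78.3% lies within Gnas on the opposite strand, and strand use in counting is not stated. Reads in that stretch cannot be assigned with certainty, so this near-even share does not show that Nespas is expressed from both copies. The cas share of the Nespas row, 50.6%, lay between those of Gnas (53.6%) and of the flanking genes Stx16 (45.7%) and Npepl1 (44.4%). Nespas had 468, 427 and 507 scaled reads in KO libraries and 707, 924 and 862 in WT libraries on day 10. All 3 KO libraries were below all 3 WT libraries, at a log2 difference of -0.82 ± 0.29 (limma adjusted p = 0.290). The share of all tested genes that were lower in KO without overlap on day 10 was not counted, and their median log2 difference was -0.26. On day 0 the KO libraries had 473, 509 and 491 and the WT libraries 813, 388 and 459 scaled reads and overlapped. Nespas was singled out here after its values were seen.

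H3K9ac, an acetylation found at active promoters, was listed within 1 kb of the start of 6 of the 10 genes in at least 1 of the 4 samples. On day 10 there were 4 such members in KO and 4 in WT, and on day 0 there was 1 in KO and there were 2 in WT. Of all 24016 genes 52.1% in KO and 50.8% in WT had one on day 10, and 40.0% in KO and 49.7% in WT on day 0, and the members' share on day 10 is near that background. With 1 sample per group there is no test, and the fold enrichment of a peak is the authors' own value. The lists differ in length (51501 peaks in KO and 37310 in WT on day 10, 37704 in KO and 63050 in WT on day 0), and most peaks in them are weak: at most 6.03% of a list reached a -log10 q of 5.

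At Airn a promoter peak was listed on day 10 only, with a fold of 5.89 in KO, above 97.6% of that list, and of 3.75 in WT, above 82.7%. At Meg3 it was listed on day 10 at 3.69-fold in KO and 4.07-fold in WT, and on day 0 in WT only, at 2.25-fold. Igf2r had promoter peaks listed on day 0 in KO (2.73-fold, -log10 q 0.451) and WT (2.25-fold, -log10 q 0, above 27% of that list) and none on day 10. Peaks this weak in 1 sample per group do not show a change with time. Plagl1 had one on day 10 in KO (2.49-fold) and WT (2.40-fold), Grb10 on day 10 in WT (2.48-fold) and Nnat on day 10 in KO (2.33-fold). Only the Airn peak of KO on day 10 reached a -log10 q of 5 (6.56), and the other promoter peaks had values of 0 to 2.50.

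At the starts of Dlk1, Rian, Mirg and Gnas no peak was listed. Inside Gnas a peak lay 8.4 to 12.2 kb from that start in every sample, at 4.26-fold in KO and 7.62-fold in WT on day 10 and at 3.26-fold in KO and 3.21-fold in WT on day 0. A further one lay 43.0 to 48.1 kb from it on day 10, at 3.80-fold in KO and 3.30-fold in WT, and weaker ones lay between 44.0 and 48.0 kb on day 0, at 2.38-fold in KO and at most 2.54-fold in WT. In the RefSeq promoter table the other starts of Gnas lie 43.4 to 45.7 kb downstream of the most upstream one. The Nespas row overlaps the upstream part of Gnas over 11.1 kb on the opposite strand. Its start therefore falls in the stretch of the peak at 8.4 to 12.2 kb, and to which transcript that peak belongs was not tested.

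**Figure D4:**
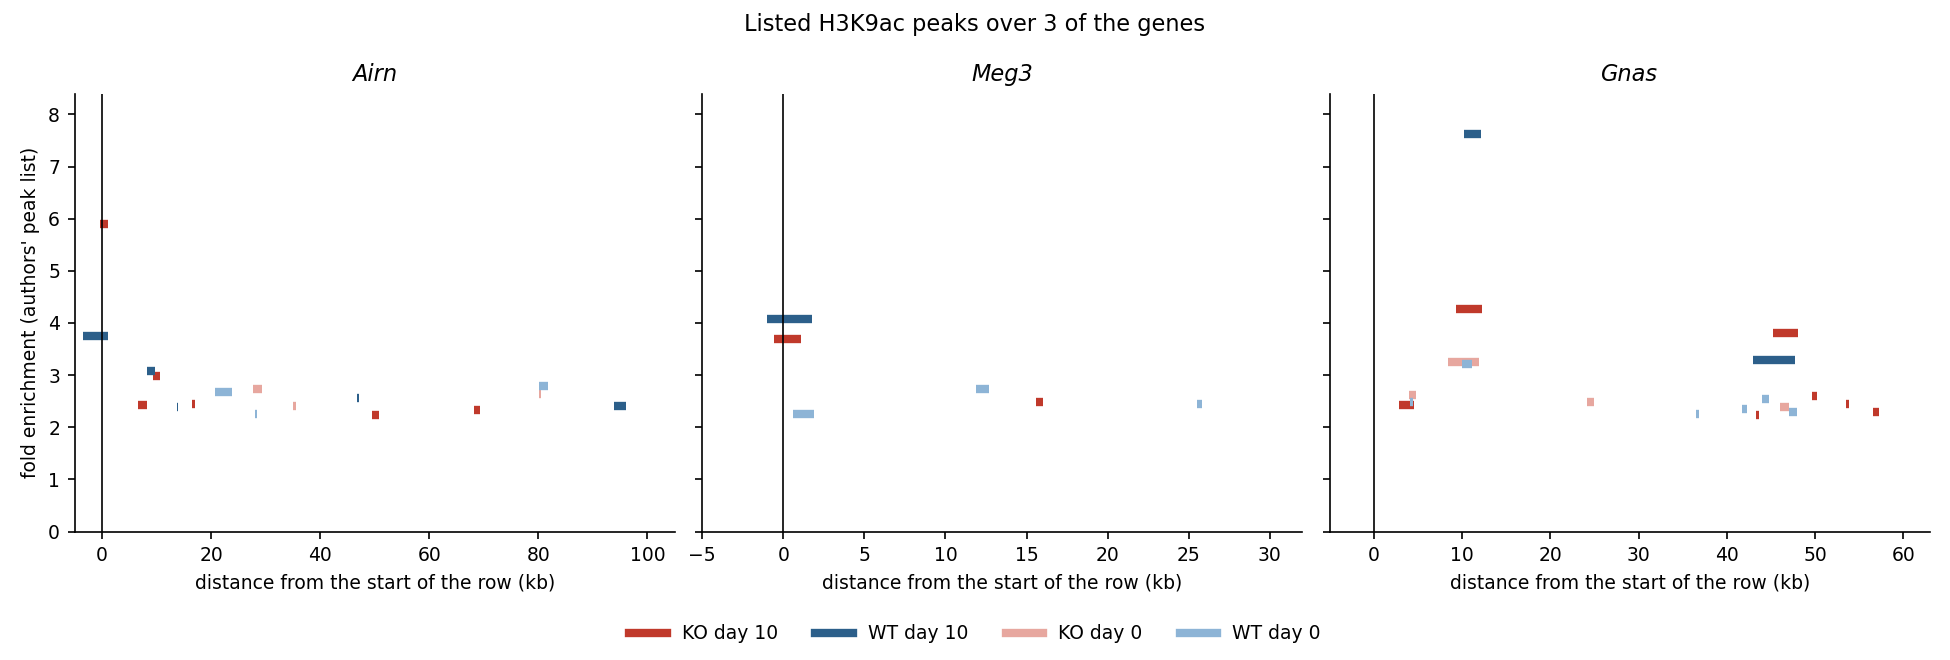
Fold enrichment of each listed H3K9ac peak against its distance in kb from the start of Airn, Meg3 and Gnas, 1 sample per group; each bar spans a peak, with day 10 in dark and day 0 in pale colours (KO red, WT blue). Peaks over the start of Airn (5.89 in KO, 3.75 in WT) and across that of Meg3 (3.69 and 4.07) are those of day 10. Within Gnas the highest bar, near the start of the antisense Nespas row, is 7.62 in WT on day 10.

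The promoters of Airn, Meg3, Igf2r and Plagl1 are printed because H3K9ac was listed over them and their RNA did different things: Airn and Meg3 rose with differentiation, Igf2r did not pass in either direction, nor did Plagl1. Each runs from 250 bases before to 50 bases after the first listed start in RefSeq's mouse table (GRCm38.p6, gene strand, 5′ to 3′). Capitals mark TGCCGC or its reverse complement GCGGCA, the hexamer that ZFP57 binds when methylated. The windows are chr17:12741061-12741360 (+), chr12:109540746-109541045 (+), chr17:12769657-12769956 (-) and chr10:13090582-13090881 (+).
Airn: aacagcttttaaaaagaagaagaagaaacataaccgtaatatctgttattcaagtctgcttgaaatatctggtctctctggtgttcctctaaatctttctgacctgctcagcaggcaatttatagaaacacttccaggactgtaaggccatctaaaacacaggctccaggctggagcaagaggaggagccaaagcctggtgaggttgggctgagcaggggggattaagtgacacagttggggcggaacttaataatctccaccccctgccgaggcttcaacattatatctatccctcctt
Meg3: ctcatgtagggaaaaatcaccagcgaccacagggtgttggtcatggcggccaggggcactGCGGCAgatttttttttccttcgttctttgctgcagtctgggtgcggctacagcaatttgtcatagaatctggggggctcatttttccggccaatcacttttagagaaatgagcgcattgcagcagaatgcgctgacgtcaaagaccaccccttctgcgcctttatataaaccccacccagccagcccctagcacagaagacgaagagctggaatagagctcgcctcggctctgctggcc
Igf2r: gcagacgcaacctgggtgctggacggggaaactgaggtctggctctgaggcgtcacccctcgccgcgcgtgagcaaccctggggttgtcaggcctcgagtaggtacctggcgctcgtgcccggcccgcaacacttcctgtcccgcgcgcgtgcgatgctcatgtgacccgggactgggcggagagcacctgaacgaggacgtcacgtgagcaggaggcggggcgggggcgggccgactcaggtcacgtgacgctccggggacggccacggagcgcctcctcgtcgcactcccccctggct
Plagl1: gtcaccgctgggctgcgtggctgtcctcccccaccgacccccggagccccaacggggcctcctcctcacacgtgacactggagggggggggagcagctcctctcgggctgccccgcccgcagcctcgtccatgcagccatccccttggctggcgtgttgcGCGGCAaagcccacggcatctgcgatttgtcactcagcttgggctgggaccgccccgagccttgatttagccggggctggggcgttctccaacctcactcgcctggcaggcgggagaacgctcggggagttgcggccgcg
These windows differ in CpG content, with 3 CpG in Airn, 13 in Meg3, 34 in Igf2r and 26 in Plagl1, against a median of 7 over 32851 promoters. The hexamer was found on either strand in 11.6% of all promoters and in 4 of the 15 starts that the table gives for the 10 genes, namely the first starts of Meg3, Plagl1, Grb10 and Nnat. In Meg3 it begins at base 61 and in Plagl1 at base 161 of the printed window. A match is a string of letters and not a bound site, and its methylation was not measured here.

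Of 20 measured neighbours of the 10 loci, 1 passed in each line with differentiation, and it was Cobl, an actin regulator beside Grb10, at -2.63 ± 0.42 in KO (limma adjusted p = 0.00376) and -2.62 ± 0.42 in WT (limma adjusted p = 0.00266). Rtl1 and Dio3, the other protein-coding genes of the Dlk1-Meg3 domain, did not pass in any comparison, and Rtl1 had 0 to 1 reads per KO library and 1 to 2 per WT library on day 10. Of 36 other imprinted genes 9 rose and 2 fell in KO and 8 rose and 0 fell in WT. The 2 that fell in KO were Copg2 (-1.34) and Rasgrf1 (-2.72). Those with the largest rises in both lines were H19 (6.73 in KO, 6.87 in WT), Igf2 (5.08 in KO, 4.62 in WT), Peg3 (3.36 in KO, 3.79 in WT) and Magel2 (3.15 in KO, 3.24 in WT, all log2, limma). Of 17 genes of imprint maintenance 3 fell in both lines, namely Zfp57 (-1.81 ± 0.41 in KO, -2.85 ± 0.41 in WT), Tet1 and Tet2, and 0 rose. The median log2 day change was -0.41 in KO and 0.35 in WT for the neighbours, 0.04 in KO and 0.55 in WT for the other imprinted genes and -0.24 in KO and -0.45 in WT for imprint maintenance. None of these 73 genes passed between KO and WT on either day by limma.

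The genes whose pattern over the 12 libraries was most like that of a member are given as a description, since all share the contrast of the same 6 day 10 and 6 day 0 libraries. For Airn these were Gli3, Dkk1 and Zfp608 (Pearson r = 0.978 to 0.983) and for Meg3 Alox15, Igf2 and Cxx1c (r = 0.970 to 0.975). For Gnas they were Myh10, Peg10 and Sox11 (r = 0.975 to 0.979), for Nnat Peg10 and Krt18 (r = 0.985 to 0.987) and for Grb10 Manba, Cnnm1 and Dpp4 (r = 0.972 to 0.981).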

How the data were processed

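The series was deposited without a paper in the sources used here. The submitters' processing notes name TopHat, HOMER, Novoalign, MACS2 and the build mm9, with no roles or versions; strand use, multiple placements and the allele assignment are not stated there. The gene table deposited by the authors holds a signal per gene and library, reads scaled to a common total, and 100% of its values were whole reads times 1 factor per library (within 0.006). Counts of mus and cas reads per gene come from a table that the authors deposited. The peak lists, 1 per ChIP sample, hold fold enrichment, -log10 p and -log10 q values, per the file headers. The design assumed counts in the gene table; as it holds scaled values, the main test was limma 3.58.1 (R 4.3.3, trend, robust) after a pseudocount of 1 and a log2 transform, keeping genes whose value exceeded 1 in 3 or more libraries, with all 12 libraries and Benjamini-Hochberg adjustment over 20624 genes at 0.05. Recovered reads were tested with edgeR 4.0.16 (quasi-likelihood, also for alleles, at least 10 allelic reads in each compared library) and DESeq2 1.42.0. Neighbourhood shares used genes with at least 20 allelic reads within 5 Mb and called both alleles between 20 and 80% cas. Promoter peaks overlap 1 kb on either side of a start. Scripts ran in Python 3.11.15 with scipy 1.17.1 and were tested on simulated data. Members and lists were chosen with earlier results of these data known. All 10 members are named in every comparison; of other genes, Ehmt2, passing neighbours, up to 4 passing imprinted genes and the 3 genes most like each passing member were named by rule (1 of these is not reported here), and Copg2, Rasgrf1, Nespas, Dcn, Zfp57, Tet1, Tet2, Rtl1, Dio3, Mas1, Blcap, Stx16, Npepl1 and Col1a1 were added. The labels' donor numbers repeat across groups of 1 cell line, and the correlation of same-numbered deviations was 0.43 and 0.58 for replicates 1 and 3 of day 0 (KO with WT) but not over 0.1 in every pair, so the numbers were not taken as pairs and the main fit has no replicate block. Alternatives were other pseudocounts (0.1, 5), no filter, TMM and RLE scaling, edgeR, DESeq2, a replicate block, a depth term, fits of the compared groups alone, subsets of libraries, other allele minimums, windows and peak limits, and, added after the data were seen, fits without the deep or without the shallow day 0 libraries. H3K9me2 and input samples were not used here.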

Additional observations from a re-analysis of the deposited data

How the results depend on the processing

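Counts of passing members moved as follows. For day 10 against day 0 the main count was 5 in KO and 4 in WT; DESeq2 gave 8 in KO and 7 in WT, the depth term 7 in KO and 7 in WT, RLE scaling 7 in KO and 6 in WT, leaving out a library 2 (without KO day 10 replicate 3; 3 without replicate 2) to 5 in KO and 3 to 6 in WT, and leaving out the 3 deep libraries 3 in KO. Over all genes DESeq2 passed 3276 in KO and 1840 in WT for the days. Counts over all genes under the depth term, RLE scaling and the subsets of libraries are not given here, so those member counts stand without a background. Counts of members between KO and WT stayed at 0 in every alternative. The replicate block gave 5 members in KO, 5 in WT and 0 between the lines; it changed the call of Rian in WT (1.47, limma adjusted p = 0.0222) and of no other member; the numbers do not pair the libraries, with correlations of same-numbered deviations from -0.40 to 0.58. RLE scaling moved the median change of all genes by more than 0.1, to -0.41 (main -0.68) in KO and -0.01 (main -0.20) in WT. Members with a changed allele share in KO numbered 0 to 1 over libraries left out. Gnas stayed the only locus with both alleles in all 15 alternatives.

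At a -log10 q of at least 5 the members with a promoter peak numbered 1 in KO and 0 in WT on day 10, 0 in KO and 0 in WT on day 0, and 1 in any sample. Within 2 kb the KO count of day 0 was 2, and within 0.5 kb the WT count of day 0 was 1.

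Of 1290 alternative log2 changes of members, 68 changed sign, all of members that had not passed; the cause was not tested (background-rich libraries are KO day 0 replicate 1 and WT day 10 replicate 3; the fits without deep or shallow libraries were chosen after the data were seen). For KO against WT on day 10, Mirg (-0.16) was 0.03 with no background-rich libraries, -0.50 to 0.03 over libraries left out. Nnat (0.14) was -0.09 with no background-rich libraries, -0.09 to 0.38 over libraries left out. For KO against WT on day 0, Rian (-0.05) was 0.01 with TMM scaling, 0.39 with no background-rich libraries, 0.10 with no replicate 1 of day 0, -0.34 to 0.39 over libraries left out. Gnas (-0.01) was 0.06 with TMM scaling, 0.02 with edgeR, 0.26 with no background-rich libraries, 0.07 with no replicate 1 of day 0, -0.20 to 0.26 over libraries left out. Mirg (0.00) was -0.07 with edgeR, -0.09 with DESeq2, -0.46 with the depth term, -0.41 with no deep libraries, -0.51 with no shallow day 0 libraries, -0.47 to 0.48 over libraries left out. Nnat (0.05) was -0.30 with the depth term, -0.39 with no deep libraries, -0.27 with no shallow day 0 libraries, -0.24 to 0.45 over libraries left out. Dlk1 (0.07) was -0.04 with no deep libraries, -0.08 to 0.19 over libraries left out. Igf2r (0.16) was -0.18 with no deep libraries. For day 10 against day 0 in KO, Plagl1 (0.06) was -0.17 with no background-rich libraries and no replicate 1 of day 0 and no shallow day 0 libraries, -0.17 to 0.22 over libraries left out. For day 10 against day 0 in WT, Plagl1 (0.45) was -0.06 with no shallow day 0 libraries. For the difference of the day changes, Meg3 (-0.07) was 0.01 with RLE scaling, 0.04 with edgeR, 0.05 with DESeq2 and no background-rich libraries, 0.07 with no deep libraries, -0.25 to 0.08 over libraries left out. Mirg (-0.17) was 0.39 with the depth term, 0.25 with no deep libraries, 0.35 with no shallow day 0 libraries, -0.65 to 0.31 over libraries left out. Igf2r (0.30) was -0.07 with no background-rich libraries. Gnas (0.24) was -0.18 with no background-rich libraries, -0.02 to 0.43 over libraries left out. Nnat (0.09) was -0.54 with no background-rich libraries, -0.03 with no replicate 1 of day 0, -0.31 to 0.38 over libraries left out. Dlk1 (0.32) was -0.04 to 0.60 over libraries left out. Grb10 (-0.32) was 0.11 with no shallow day 0 libraries, -0.67 to 0.03 over libraries left out. Rian (-0.51) was 0.05 with no deep libraries.

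Depth limits Dlk1 and Nnat on day 0 (7 reads in the lowest library of each) and the allele share of Gnas.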
